A study of Mus musculus with 8 samples.

Results

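The 40 genes described here are imprinted genes from loci other than Igf2-H19 and Dlk1-Meg3, with 4 that are of mixed parental use or not imprinted in mouse, and they were picked by name from 46472 genes in the deposited tables. Of the 40, 36 belong to the 22050 genes that the tables give an mRNA model, and 4 are non-coding RNAs without one (Airn, Kcnq1ot1, Nespas and Peg13). Hematopoietic stem cells (HSCs) were sorted from the bone marrow of C57BL/6 mice as Lineage- CD150+ CD48- EPCR+ cells, 100 cells per library. They came from pups at postnatal day 5 (P5, 4 libraries) or from mice 4 weeks old (4 libraries). No mutation or treatment is given for either age, and the cells kept in culture that the series description names are not analysed here. The comparison asks how RNA of stem cells differs between the neonatal and the juvenile marrow, here for genes grouped by the parental allele they are known to use.

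An imprinted gene is expressed mainly from the allele inherited from 1 parent. The choice is set by DNA methylation laid down in the egg or sperm at an imprinting control region, and kept through cell division by factors such as the zinc finger protein ZFP57 and the maintenance methyltransferase DNMT1. Many paternally expressed genes are known as promoters of fetal growth and many maternally expressed ones as brakes on it, and several of the former are known to fall after birth in many organs. In blood, imprinted genes are known for their part in keeping HSCs quiescent. By textbook knowledge, 19 of the 40 genes are paternally expressed, 5 are maternally expressed, 12 are maternally expressed only in tissues such as placenta or brain, and 4 are of mixed parental use or not imprinted in mouse (Gnas, H13, Inpp5f and Rb1). The libraries do not tell the alleles apart, so every value below is the sum of both.

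Promoter windows of 5 genes are printed and marked for motifs of the imprint-keeping factors. Mest is among them but was not called different between the ages, and some genes that differed have windows that are not printed. Each window is from RefSeq on build GRCm38.p6, runs 5′ to 3′ on the gene's own strand and spans 250 bases before to 50 bases after a start site. Capitals mark the motif bound by ZFP57 (TGCCGC, or its complement GCGGCA, searched on both strands) or by YY1 (GCCATNTT, both strands), and no printed window held the second.
Zdbf2, upstream start (paternal, a zinc finger gene), chr1:63200108-63200407, plus strand: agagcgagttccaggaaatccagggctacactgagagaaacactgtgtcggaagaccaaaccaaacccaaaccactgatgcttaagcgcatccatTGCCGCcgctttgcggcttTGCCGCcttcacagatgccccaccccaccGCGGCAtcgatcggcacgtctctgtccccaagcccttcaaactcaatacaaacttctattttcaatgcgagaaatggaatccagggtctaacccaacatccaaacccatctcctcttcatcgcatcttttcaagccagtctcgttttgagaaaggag
Zdbf2, downstream start, chr1:63273019-63273318, plus strand: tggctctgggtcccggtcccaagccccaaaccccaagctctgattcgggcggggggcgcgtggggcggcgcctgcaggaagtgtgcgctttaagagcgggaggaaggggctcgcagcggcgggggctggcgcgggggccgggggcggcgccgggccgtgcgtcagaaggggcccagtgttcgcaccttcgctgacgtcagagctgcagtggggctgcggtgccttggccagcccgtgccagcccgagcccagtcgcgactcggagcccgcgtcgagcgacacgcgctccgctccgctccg
Plagl1 (paternal, a zinc finger transcription factor), chr10:13090582-13090881, plus strand: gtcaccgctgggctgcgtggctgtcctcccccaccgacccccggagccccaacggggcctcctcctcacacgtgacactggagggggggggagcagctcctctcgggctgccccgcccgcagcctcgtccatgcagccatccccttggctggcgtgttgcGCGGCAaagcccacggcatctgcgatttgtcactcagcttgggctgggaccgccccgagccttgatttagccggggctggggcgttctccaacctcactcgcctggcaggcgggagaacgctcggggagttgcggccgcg
Peg3 (paternal, a zinc finger protein), chr7:6730370-6730669, minus strand: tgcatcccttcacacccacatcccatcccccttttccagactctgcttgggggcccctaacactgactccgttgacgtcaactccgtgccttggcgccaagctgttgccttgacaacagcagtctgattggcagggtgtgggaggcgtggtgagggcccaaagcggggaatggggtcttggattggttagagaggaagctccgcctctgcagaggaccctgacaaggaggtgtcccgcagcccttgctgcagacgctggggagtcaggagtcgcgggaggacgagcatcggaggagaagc
Mest (paternal, a hydrolase-like protein), chr6:30737800-30738099, plus strand: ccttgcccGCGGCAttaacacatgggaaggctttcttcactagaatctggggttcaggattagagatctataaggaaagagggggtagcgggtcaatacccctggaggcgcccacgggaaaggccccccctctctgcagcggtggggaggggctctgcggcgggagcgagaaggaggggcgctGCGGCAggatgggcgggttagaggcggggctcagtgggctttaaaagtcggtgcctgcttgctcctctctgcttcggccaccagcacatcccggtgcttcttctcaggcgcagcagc
Grb10 (maternal, an adaptor that dampens insulin and growth factor receptors), chr11:12037371-12037670, minus strand: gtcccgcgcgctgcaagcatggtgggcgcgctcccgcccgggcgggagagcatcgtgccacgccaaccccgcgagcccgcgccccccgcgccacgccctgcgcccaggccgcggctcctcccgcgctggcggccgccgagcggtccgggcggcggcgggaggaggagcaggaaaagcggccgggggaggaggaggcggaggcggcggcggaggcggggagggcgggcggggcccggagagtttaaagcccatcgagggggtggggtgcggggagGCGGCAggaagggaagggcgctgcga

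The ZFP57 motif occurred 3 times in the upstream Zdbf2 window and not in the downstream one. It occurred 2 times in the printed Mest window, 1 time in the Plagl1 window and in the printed Grb10 window, and not in that of Peg3. Mest has 2 more windows and Grb10 1 more that are not printed: a Mest window 3 bases further on held 2 matches, and the other windows, at chr6:30733256-30733555 for Mest and chr11:12027922-12028221 for Grb10, held none. Of the genes called different between the ages, 8 have a window, and those of Osbpl5, Ndn, Ascl2 and Herc3 are not printed. Osbpl5 held 1 match, in its window at chr7:143740311-143740610, and none in its other windows. Ndn, Ascl2 and Herc3 held none. Windows of the 40 genes on chromosome 18, where Impact lies, were left out. With that, 32 of the 40 genes had 47 windows in all. Of the 47, 12 (25.5%) held the motif, against 11.6% of the 32851 windows of this length, from which no chromosome was removed. The YY1 motif was in 2 of 47 windows (4.26%) and in 6.05% of all windows, and the CTCF motif was in none of the 47 and in 0.0365% of all. The median number of CpG sites was 17 per window for these genes and 7 over all windows, and the median observed-to-expected CpG ratio was 0.630 and 0.384. The ZFP57 motif itself holds a CpG, and the shares above were not matched for CpG content. Whether the motif is more frequent than that content would give was not tested. The start sites of Peg3 and Usp29 lie 164 bases apart and point away from each other, so their windows overlap. A match is a run of letters, not a site shown to be bound, and several windows belong to the same gene.

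Total exon reads ran from 5775130 to 7470777 per library, and 60.1% to 68.7% of the reads in genes with an mRNA model were intronic. Of 11 genes of the sort gate and of HSC identity, 8 were not called, among them the gate genes Procr and Slamf1, which were read at both ages. At P5, 2 were higher (18.2%) and 1 lower (9.09%), against 7.99% and 8.55% of all genes tested with an mRNA model. Ly6a (Sca-1) was lower at P5 (29.6 ± 4.00 against 85.9 ± 17.8 CPM, log2 -1.53, edgeR adjusted p = 1.49e-05), and Mecom (log2 0.35, adjusted p = 0.0106) and Flt3 (log2 0.64, adjusted p = 0.0408) were higher. Cd48, a marker the gate excludes, was at 4.98 ± 3.57 and 5.10 ± 2.66 CPM (SD, n = 4). CPM are reads scaled to a common library total. Libraries stood apart in 2 ways. P5 replicates 1 and 3 had at most 2 reads on 4 Y-linked genes against 1532 to 2293 in the other 6. Those 6 are P5 replicates 2 and 4 and all 4-week libraries, so male cells, and with them sex, are partly confounded with age. P5 replicate 2 had 158 CPM of the monocyte gene Csf1r against 3.45 to 7.92 in the other 7. For some markers of other cells, the summed CPM of the 2 ages did not overlap. Sums ran from 584 to 922 at P5 and 94.6 to 138 at 4 weeks for 9 erythroid genes. These were mostly Hbb-bt, at 710 ± 151 against 96.8 ± 21.0, and Alas2 had no read. For 6 B cell genes the sums were 34.1 to 51.7 and 20.9 to 26.1 (mostly Cd79b, with no read for Ms4a1). For 5 T cell genes they were 11.04 to 19.4 and 5.05 to 7.93 (mostly Cd4, with no read for Cd3e or Cd3g). For 8 endothelial genes the sums were 306 to 400 at P5 and 234 to 298 at 4 weeks. Cdh5, a small part of that sum, was at 10.8 ± 6.17 and 0.0421 ± 0.0841 CPM. Of the 7 endothelial genes tested, 3 were higher at P5 (42.9%, against 7.99% of all genes tested) and 4 were not called. Their median log2 difference was 0.33. The erythroid, B cell, T cell and endothelial sums each had an exact two-sided permutation p of 0.0286, the smallest that 4 against 4 can give. The adjusted p was 0.0571 over 8 lists. The 11 stroma and bone genes summed to 11.2 to 28.6 and 12.6 to 84.1 CPM, with no read for Prrx1 or Lum. Sums also overlapped for 6 megakaryocyte genes (293 to 404 and 319 to 419 CPM). The same held for 9 neutrophil and monocyte genes (163 to 358 and 159 to 181 CPM). The exact permutation p was 0.543 for stroma and bone, 0.200 for megakaryocytes and 0.229 for neutrophils and monocytes. For the 11 gate and identity genes it was 0.0857. The part of other cells in the results below was not tested. Leaving out P5 replicate 2, the library with high Csf1r, lost none of the 11 calls below. That cannot speak to erythroid, B cell, T cell or endothelial genes, whose sums were higher in every P5 library than in any 4-week one. In bulk RNA fewer cells of a type and less RNA per cell cannot be told apart.

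Of the 40 genes, 32 had enough reads to be tested, 8 of them were higher and 3 lower at P5, and 21 were not called. A call is an adjusted p under 0.05 in edgeR's quasi-likelihood test with Benjamini-Hochberg adjustment over all genes tested. Among the 29 tested genes with an mRNA model, 7 were higher at P5 (24.1%) and 3 lower (10.3%). Over all 12235 genes tested that way, 7.99% were higher and 8.55% lower. Values of the 2 ages did not overlap for 12 of the 29, against 21.2% of all genes. Of the 3 tested non-coding genes, 1 was higher and none lower, against 4.72% and 4.80% of the 2815 such genes tested. That 1 was also the only one of the 3 whose ages did not overlap, against 17.7% of such genes. The median log2 difference, P5 minus 4 weeks, was 0.05 for the 29 genes and -0.00424 over all genes tested.

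The calls were distributed by parental class as follows. Of the paternally expressed genes, 12 were tested, 7 were higher at P5, none was lower and 5 were not called. Of the 7, Plagl1, Sgce and Ndn lost the call with Y-linked reads as a term, and 4 kept it. Of the 9 paternal genes with an mRNA model, 66.7% were higher and none was lower, with a median log2 difference of 0.84. The sign was positive in 7 of the 9 and negative in 2. Over all genes tested with a model, 7.99% were higher and 8.55% lower. Of the 3 paternal genes without a model, 1 was higher and 2 had a negative sign, with a median of -0.29. Over all genes tested without a model, 4.72% were higher and 4.80% lower. Of the 17 maternally expressed genes, restricted or not, 16 were tested, 1 was higher (6.25%), 3 were lower (18.8%) and 12 were not called. The median of the 16 was -0.08. None of the 4 mixed or non-imprinted genes was called, and their median was -0.00344. The 12 and 16 tested genes are those with enough reads, and a gene read at only 1 age could enter through that age alone. Zdbf2, among the 7 higher, was kept through its P5 libraries. The difference between the classes was not tested.

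**Figure D1:**
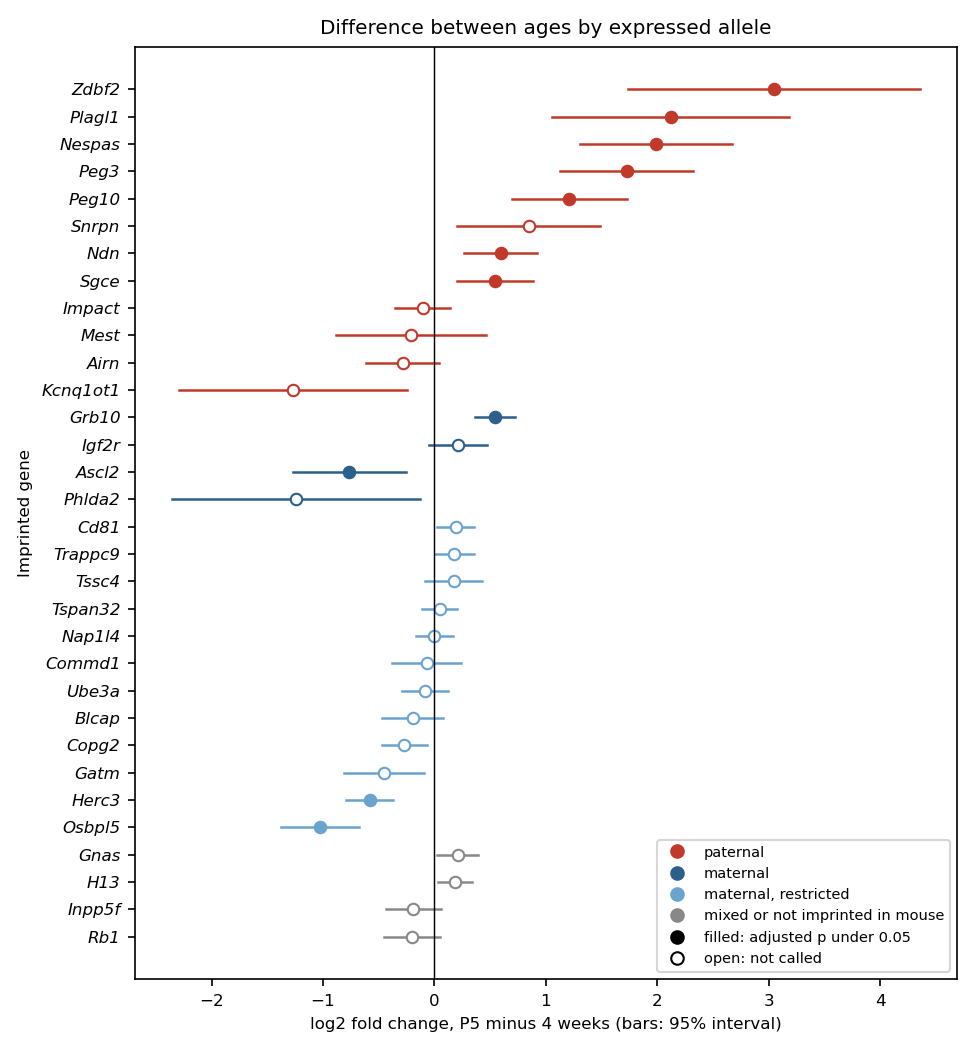
Log2 fold change, P5 minus 4 weeks (x axis), with its 95% interval for each of the 32 tested imprinted genes (y axis), coloured by parental class. Filled points passed the test (8 higher, 3 lower). All 7 filled paternal genes lie to the right of 0, between 0.54 and 3.04.

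Zdbf2, a paternally expressed zinc finger gene known for its effect on growth after birth, had the largest fold among the called genes. Its level was 10.4, 18.7, 10.0 and 2.82 CPM in P5 replicates 1 to 4 and 1.58, 1.21, 2.19 and 0.139 CPM at 4 weeks. P5 replicate 4 was far below the other P5 libraries but still above every 4-week library. The fold was 8.25 (log2 3.04, SE 0.61, edgeR adjusted p = 0.00375). The gene rests on 309 exon reads in all. At 4 weeks it had 10, 7, 13 and 1 exon reads, and the filter on low counts kept it through its P5 libraries.

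Plagl1, a paternally expressed transcription factor known to act upstream of other imprinted genes, was read at 14.7, 10.1, 32.6 and 5.92 CPM at P5. At 4 weeks it was at 1.90, 6.20, 4.04 and 2.49 CPM, so the lowest P5 library lay within the 4-week range. The fold was 4.35 (log2 2.12, SE 0.49, edgeR adjusted p = 0.00944). Among the 6 libraries with Y-linked reads the log2 difference was 1.14 (adjusted p = 0.173), so the call was lost there, and without P5 replicate 3 it was 1.496 (adjusted p = 0.0380).

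Peg3, a paternally expressed zinc finger protein found in stem cells of several tissues, was at 22.4, 25.5, 12.9 and 20.9 CPM at P5 and at 3.79, 6.20, 5.22 and 9.28 CPM at 4 weeks. All 4 P5 libraries were above all 4-week ones. The mean was 20.4 ± 5.35 against 6.12 ± 2.33 (SD, n = 4), a 3.31-fold difference (log2 1.73, SE 0.28, edgeR adjusted p = 0.000864). Its 2 neighbours were hardly read: Usp29, which starts head to head with it and codes for a deubiquitinase, had 2 exon reads, both at 4 weeks, and Zim1, a maternally expressed zinc finger gene, had 4, all at P5. Usp29 had 258 intron reads.

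Nespas, the paternally expressed antisense transcript at the Gnas locus, was at 116, 57.9, 102 and 107 CPM at P5 and at 22.1, 38.2, 22.9 and 13.7 CPM at 4 weeks. These CPM are over reads of genes without an mRNA model, so they are not comparable with those of the other called genes. The lowest P5 library was above the highest 4-week one, and the fold was 3.96 (log2 1.99, SE 0.31, edgeR adjusted p = 0.00228). The library kit does not mark strand, and Nespas overlaps Gnas, so reads of the 2 genes in the shared stretch cannot be told apart. Gnas itself, which codes for the stimulatory G protein alpha subunit, was at 678, 565, 524 and 559 CPM at P5 and at 499, 479, 526 and 510 CPM at 4 weeks. The 2 ages overlapped, and its log2 difference was 0.21 (95% interval 0.03 to 0.39, edgeR adjusted p = 0.117).

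Peg10 and Sgce are paternally expressed neighbours on chromosome 6, and both were higher at P5. Peg10, a gene derived from a retrotransposon and needed in the placenta, was at 23.9, 14.5, 17.6 and 20.2 CPM at P5 and at 5.21, 10.0, 7.07 and 10.5 CPM at 4 weeks. The ages did not overlap, and the fold was 2.32 (log2 1.21, SE 0.24, edgeR adjusted p = 0.00359). Sgce, which codes for epsilon-sarcoglycan, was at 30.3, 26.6, 32.8 and 21.0 CPM at P5 and at 19.8, 18.96, 16.7 and 20.4 CPM at 4 weeks. Its ages were separated by less than 1 CPM, and the fold was 1.46 (log2 0.54, SE 0.16, edgeR adjusted p = 0.0314). The Sgce call was lost when any of 5 libraries was left out (P5 replicates 1 and 3, 4-week replicates 1, 3 and 4), with adjusted p up to 0.0995, and among the libraries with Y-linked reads (log2 0.33, adjusted p = 0.310).

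**Figure D2:**
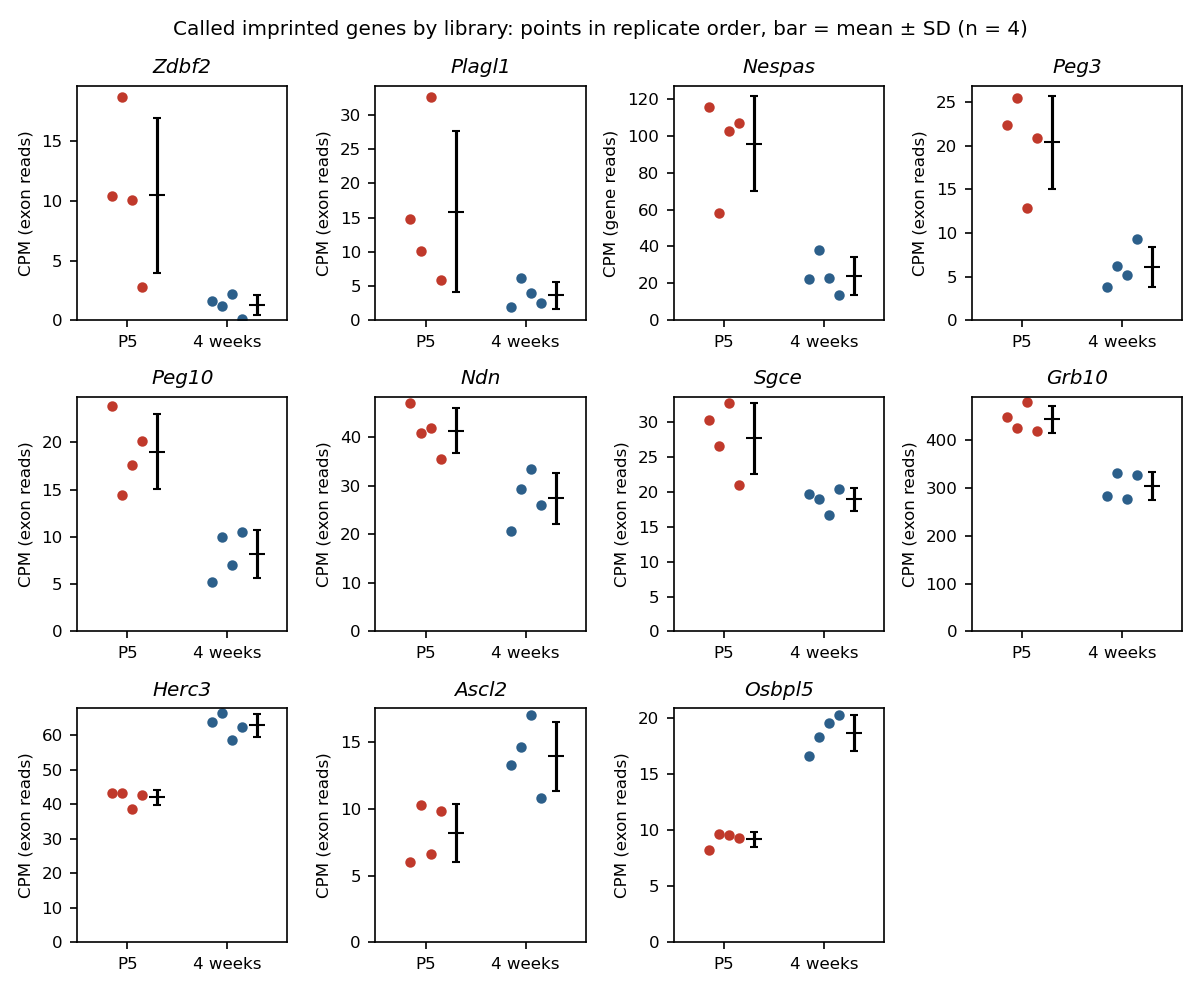
CPM in each library (y axis, from 0; P5 red, 4 weeks blue, replicates 1 to 4 from left to right) for the 11 called imprinted genes, with mean ± SD beside the points. The ages do not overlap in 10 of the 11, and Plagl1 is the exception. The 11 were picked by the test on these same values. Over all genes tested, the ages do not overlap in 21.2% with an mRNA model and 17.7% without.

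In the Prader-Willi/Angelman region of chromosome 7, Ndn was higher at P5 and its neighbours were not called. Ndn codes for necdin, a protein known to restrain the cell cycle and to bear on HSC quiescence. It was at 46.9, 40.9, 41.9 and 35.5 CPM at P5 and at 20.7, 29.3, 33.3 and 26.0 CPM at 4 weeks. The ages did not overlap, and the fold was 1.51 (log2 0.60, SE 0.15, edgeR adjusted p = 0.0159), but among the libraries with Y-linked reads it was no longer called (log2 0.48, adjusted p = 0.1502). None of the Ndn reads is listed as unique, and the gene lies wholly inside the span of another gene. Snrpn, a paternally expressed splicing protein, was at 6.13, 6.68, 4.69 and 5.64 CPM at P5 and at 3.79, 3.10, 3.37 and 2.63 CPM at 4 weeks. The ages did not overlap, yet the test was not passed (log2 0.84, edgeR adjusted p = 0.0705), and none of its exon reads is listed as unique.

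Ube3a, the maternally expressed ubiquitin ligase of that region, is imprinted in neurons. It was at 271, 270, 341 and 266 CPM at P5 and at 313, 332, 268 and 302 CPM at 4 weeks, with overlapping ages (log2 -0.08, 95% interval -0.29 to 0.12, edgeR adjusted p = 0.609). Magel2, a paternally expressed partner of ubiquitin ligases, had no exon read in any library.

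Slc38a4, a paternally expressed amino acid transporter, had too few reads to pass the filter. It had 18, 15, 1 and 2 exon reads in P5 replicates 1 to 4 and 1 read in all at 4 weeks. The ratio of 36 to 1 reads, scaled by library size, was 33.7 with an exact 95% interval of 5.67 to 1366 that covers counting error only. P5 replicates 1 and 2 hold most of these reads. With no filter on low counts its edgeR adjusted p was 0.0230.

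The other paternally expressed genes did not pass the test or were not tested. Impact, a regulator of the translation response to amino acid shortage, was at 100 ± 14.0 CPM at P5 and 108 ± 12.98 at 4 weeks (log2 -0.11, 95% interval -0.35 to 0.14). Mest was at 4.80 ± 0.85 and 5.55 ± 1.62 CPM (log2 -0.21, 95% interval -0.88 to 0.46). Airn, the non-coding RNA that silences Igf2r, was at 836 ± 80.3 and 1020 ± 181 CPM on their own scale (log2 -0.29, edgeR adjusted p = 0.275). It overlaps Igf2r, strand is not marked, and 10.6% of its reads are listed as unique. Kcnq1ot1, the non-coding RNA that silences its own cluster, had 25 reads at P5 and 59 at 4 weeks (log2 -1.27, edgeR adjusted p = 0.115). It lies inside Kcnq1, whose introns held 76219 reads, and none of its own 84 reads is listed as unique.

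Zrsr1, Magel2 and Nap1l5 had 0 exon reads in all 8 libraries, which allows up to 0.0573 CPM over the 8 together. Nnat, a small membrane proteolipid, had 1 exon read and Peg13, a non-coding RNA, had 1 read. All 5 of these genes lie wholly inside the span of another gene: Zrsr1 in Commd1, Nap1l5 in Herc3, Nnat in Blcap, Peg13 in Trappc9 and Magel2 in Gm32061. Genes in that position often have no read in these tables: 33.5% of 1025 such rows with an mRNA model had none, against 11.9% of 22432 others. A 0 for these genes is thus a listed value, and whether the reads were given to the host gene was not tested.

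Grb10 was the only maternally expressed gene called higher at P5. It was at 448, 426, 480 and 419 CPM at P5 and at 282, 331, 277 and 328 CPM at 4 weeks. Every P5 library was above every 4-week one, and the means were 443 ± 27.4 and 305 ± 29.1 (SD, n = 4). The fold was 1.45 (log2 0.54, SE 0.08, edgeR adjusted p = 0.000628).

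Igf2r, the maternally expressed receptor that clears IGF2 from the cell surface, was at 228, 165, 156 and 176 CPM at P5 and at 137, 155, 182 and 153 CPM at 4 weeks. The ages overlapped, and P5 replicate 1 was the highest library (log2 0.21, 95% interval -0.05 to 0.47, edgeR adjusted p = 0.266).

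The Kcnq1ot1 cluster of chromosome 7 holds 2 of the 3 genes lower at P5. Osbpl5, a lipid transfer protein maternally expressed in placenta, was at 8.18, 9.64, 9.53 and 9.31 CPM at P5 and at 16.6, 18.3, 19.5 and 20.2 CPM at 4 weeks. The libraries of each age lay close together, and the level was 2.04-fold higher at 4 weeks (log2 -1.03, SE 0.16, edgeR adjusted p = 0.000812). Ascl2, a maternally expressed basic helix-loop-helix transcription factor of the trophoblast, was at 6.00, 10.3, 6.63 and 9.87 CPM at P5 and at 13.3, 14.6, 17.0 and 10.8 CPM at 4 weeks. The ages were separated by less than 1 CPM (log2 -0.76, SE 0.23, edgeR adjusted p = 0.0406). Its call was lost without any of P5 replicates 1 and 3 or 4-week replicates 1, 2 and 3 (adjusted p up to 0.119), and among the libraries with Y-linked reads (log2 -0.46, adjusted p = 0.287).

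The other genes of that cluster were not called. Phlda2, a maternally expressed brake on placental growth, was at 2.45, 0.622, 2.10 and 1.69 CPM at P5 and at 6.95, 1.72, 2.52 and 5.13 CPM at 4 weeks, with overlapping ages (log2 -1.24, 95% interval -2.35 to -0.13, edgeR adjusted p = 0.123). Cd81, a tetraspanin, was at 309, 292, 263 and 262 CPM at P5 and at 240, 258, 243 and 246 CPM at 4 weeks. Its ages did not overlap, but the log2 difference of 0.19 did not pass (edgeR adjusted p = 0.111). The tetraspanin Tspan32 was at 168, 181, 176 and 171 CPM at P5 and at 168, 165, 157 and 183 CPM at 4 weeks, and the histone chaperone Nap1l4 was at 151, 146, 163 and 168 CPM and at 150, 150, 165 and 165 CPM. Tssc4 was at 55.8, 67.3, 54.5 and 69.2 CPM and at 49.9, 61.5, 59.2 and 48.8 CPM. Ages overlapped in all 3, and the 95% intervals of the log2 difference were -0.11 to 0.21, -0.17 to 0.16 and -0.09 to 0.43.

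Herc3, a ubiquitin ligase of the HECT family and host of Nap1l5, was the third gene lower at P5. It was at 43.4, 43.2, 38.8 and 42.7 CPM at P5 and at 63.8, 66.5, 58.7 and 62.5 CPM at 4 weeks. The level was 1.496-fold higher at 4 weeks with no overlap of the ages (log2 -0.58, SE 0.10, edgeR adjusted p = 0.00122).

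The remaining maternally expressed genes are known as such in brain or placenta, and none passed the test. Gatm, an enzyme of creatine synthesis, was at 40.3 ± 5.004 CPM at P5 and 55.3 ± 14.2 at 4 weeks (log2 -0.45, edgeR adjusted p = 0.0858), and without 4-week replicate 1 it was called (log2 -0.58, adjusted p = 0.0305). Copg2, a coat protein subunit that neighbours Mest, was at 89.5 ± 11.2 and 108 ± 2.81 CPM (log2 -0.27, edgeR adjusted p = 0.0671), and without P5 replicate 1 it was called (log2 -0.36, adjusted p = 0.0118). Trappc9, which takes part in vesicle traffic, was at 166 ± 12.3 and 147 ± 8.64 CPM (log2 0.18, 95% interval 0.01 to 0.35, edgeR adjusted p = 0.1496). Commd1, a copper homeostasis protein, was at 28.9 ± 3.90 and 30.5 ± 4.04 CPM (log2 95% interval -0.38 to 0.24), and Blcap was at 23.7 ± 2.05 and 27.2 ± 2.03 CPM (-0.47 to 0.08). Among the mixed or non-imprinted genes, H13, a signal peptide peptidase, was at 413 ± 16.3 and 364 ± 18.4 CPM without overlap (log2 0.18, edgeR adjusted p = 0.0913), whereas the ages overlapped in the others. The phosphatase Inpp5f was at 43.4 ± 2.99 and 49.5 ± 5.52 CPM (log2 -0.19, edgeR adjusted p = 0.291), and the tumor suppressor Rb1 was at 58.1 ± 9.03 and 66.8 ± 2.17 CPM (log2 -0.20, edgeR adjusted p = 0.265).

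Per kilobase of exon model, levels at P5 ran from 185 CPM per kb for Cd81 to 0.785 for Zdbf2 among the tested genes. Grb10 was at 84.7 CPM per kb at P5 and 58.2 at 4 weeks, Ndn at 25.0 and 16.5, and Sgce at 10.9 and 7.45. Peg3, Plagl1 and Peg10 lay close together at 3.08, 3.01 and 2.85 CPM per kb at P5, and at 0.924, 0.695 and 1.23 at 4 weeks. The called paternal genes with an mRNA model were thus below Grb10 at both ages on this scale of level per length.

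Intron reads gave a second count for 25 of the tested genes, taken from the same libraries. All 8 genes that were called from exon reads and had enough intron reads kept their sign, and 4 of them were also called (Zdbf2, Plagl1, Grb10 and Sgce). The log2 difference from intron reads was 2.81 for Zdbf2 (SE 0.33, edgeR adjusted p = 0.000185) and 2.54 for Plagl1 (SE 0.43, adjusted p = 0.00214). For Peg3 it was 1.67 (adjusted p = 0.0581), for Osbpl5 -0.63 (adjusted p = 0.0569), for Herc3 -0.36 (adjusted p = 0.0507) and for Ascl2 -0.47 (adjusted p = 0.162). Ube3a, not called from exon reads, had a log2 difference of 0.37 from intron reads (adjusted p = 0.00701), with the opposite sign. Over the 25 genes, 16 had the same sign in both counts.

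**Figure D3:**
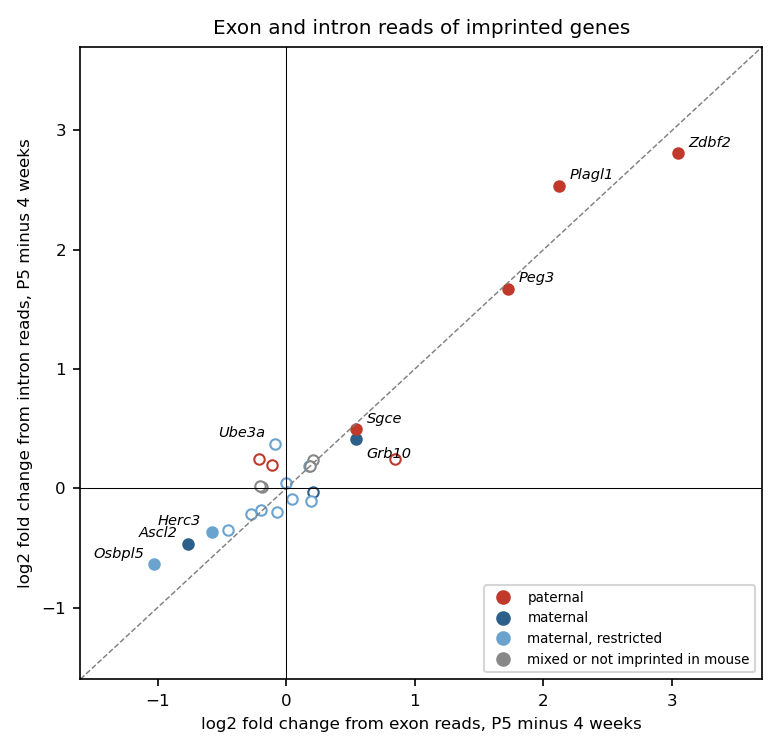
Log2 fold change, P5 minus 4 weeks, from exon reads (x axis) and from intron reads (y axis) of the same libraries for 25 imprinted genes, coloured by parental class and filled where called from exon reads. The dashed line marks equal values. The 8 filled genes keep their sign, and Ube3a lies above 0 for introns (0.37) and below 0 for exons (-0.08).

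Of 17 factors known to set or keep imprints, 14 were tested and 11 of them were not called. The median log2 difference of the 14 was 0.19. At P5, 3 were higher (21.4%) and none was lower, against 7.99% and 8.55% of all genes tested with an mRNA model. The 3 were the de novo methyltransferases Dnmt3b (279 ± 19.4 against 156 ± 16.1 CPM, log2 0.84, SE 0.09, edgeR adjusted p = 2.62e-05) and Dnmt3a (532 ± 41.1 against 341 ± 24.3 CPM, log2 0.64, SE 0.08, edgeR adjusted p = 0.000116), and Arid4b, a chromatin factor (94.1 ± 4.26 against 73.1 ± 5.39 CPM, log2 0.36, SE 0.09, edgeR adjusted p = 0.0112). Ctcfl, Dppa3 and Dnmt3l had too few reads to test.

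Of 32 further imprinted genes listed beside the 40, 17 were tested, 2 were higher at P5 (11.8%), 1 was lower (5.88%) and 14 were not called. These shares lie near the 7.99% and 8.55% of all genes tested with an mRNA model. The median log2 difference of the 17 was 0.000652. Sfmbt2, a paternally expressed Polycomb protein, was at 44.0 ± 13.5 and 20.7 ± 7.38 CPM (log2 1.09, SE 0.25, edgeR adjusted p = 0.00916). Gab1, a docking protein, was at 121 ± 16.5 and 86.5 ± 20.4 CPM (log2 0.48, SE 0.15, edgeR adjusted p = 0.0386). Slc22a3, an organic cation transporter in the Igf2r and Airn cluster, was at 14.8 ± 1.25 and 38.4 ± 5.86 CPM, 2.59-fold higher at 4 weeks (log2 -1.37, SE 0.15, edgeR adjusted p = 2.96e-05). For scale, all 7 tested genes of the Igf2-H19 and Dlk1-Meg3 loci were higher at P5. Over all genes tested, 7.99% of those with an mRNA model and 4.72% of those without were higher. The median log2 difference of the 3 genes of these loci with a model was 2.42. Among the 40 genes, Zdbf2 was the only called one above that value.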

How the data were processed

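RNA from 100 sorted HSCs per library was made into Nextera XT libraries and sequenced on a NextSeq, per the labels' protocols. The reads were trimmed, per the file headers, and the submitters' processing notes name mm10 as the build. For the aligner, the counter and the annotation, a name is not given in the sources used here. Each deposited table gives, as made by the authors, whole-number counts of exon, intron and gene reads for 48835 rows, with the exon length of each. Numbered copies of a gene were summed. Names changed to dates in some tables (up to 24 per table) were restored by row position, after the coordinates were found identical.

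Total exon reads of genes with an mRNA model, and apart from them total gene reads of genes with exon length 0, were tested with edgeR 4.0.16 (TMM scaling, filterByExpr, quasi-likelihood test, age as the only term). Tested genes held 99.8% of exon reads. SEs come from the F statistic, and intervals are approximate. The exact interval of the read ratio and the floor (3 counts) cover counting error only. The labels do not say that libraries came from separate animals. By their Y-linked reads (2, 2293, 0 and 2062), P5 replicates 1 and 3 did not come from the same mice as 2 and 4. The p-values measure only the spread between these libraries, part or, at 4 weeks, all of which may be technical. No 2 libraries agreed within sampling noise (chi-square per degree of freedom 4.32 to 14.4). The fit was tested on simulated data. Gene positions and promoter windows are from RefSeq, GRCm38.p6.

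Every one of the 40 genes is accounted for: called genes with values in every library, the others with means or read counts. From each other list up to 4 called genes are named. The members, classes and lists were chosen with earlier results of these data known. Alternatives were other filters, scalings, tools, kinds of read, a replicate block, terms for Y-linked reads, and each library left out.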

Additional observations from a re-analysis of the deposited data

Results flagged for a closer look

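In 2 of 64 groups of 4 libraries (each tested gene at each age), 1 library lay apart from the other 3 by more than Dixon's 95% limit, and chance gives about 1 in 20. Ube3a was at 341 CPM in P5 replicate 3, against 266 to 271 CPM in the other P5 libraries. Herc3 was at 38.8 CPM in P5 replicate 3, against 42.7 to 43.4 CPM in the other P5 libraries. Without that library Herc3 was still called lower at P5 (log2 -0.54, edgeR adjusted p = 0.00472).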

How the results depend on the processing

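Grb10, Peg10, Zdbf2 and Nespas were called under every alternative in which they were tested. Peg3, Herc3 and Osbpl5 lost the call only with intron reads. Plagl1 and Ndn lost it only with Y-linked reads as a term or with the 6 libraries that have them. Sgce and Ascl2 lost it in 8 and 9 of 20 alternatives. Ndn was tested in 18 of the 20, as it has no unique and no intron reads. The cause of these losses was not tested. With intron reads 5 of the 40 genes were higher and 0 lower (paternal 3 higher, maternal 2 higher and 0 lower; Nespas could not be counted this way). With Y-linked reads as a term, and among the 6 libraries alone (P5 replicates 2 and 4 and all 4-week ones), 5 were higher, 4 of them paternal. With a library left out, 7 to 8 were higher and 2 to 3 lower. H13 was called with DESeq2, and Copg2 with exon plus intron reads and among the 6 libraries.

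Replicate numbers did not pair the libraries (correlation of same-numbered deviations -0.03, -0.24, -0.10 and -0.05). With a replicate block, Sgce (adjusted p = 0.0977) and Ascl2 (adjusted p = 0.0947) lost the call, 577 genes with an mRNA model were higher rather than 977, and genes without one came to 73 higher and 83 lower rather than 133 and 135. Y-linked reads as a term gave 628 higher and 608 lower with a model (1046 lower in the fit by age alone) and 68 and 66 without. The 6 libraries gave 619, 638, 70 and 73. Genes without a model came to 217 higher with no filter, to 205 higher and 206 lower with DESeq2, and, with a library left out, to 80 to 97 higher and 80 to 116 lower.

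Log2 differences that changed sign were all of genes not called. With intron reads they were -0.0275 for Igf2r, 0.24 for Mest, 0.20 for Impact, 0.37 for Ube3a, -0.11 for Cd81, -0.0879 for Tspan32, 0.0429 for Nap1l4, 0.00976 for Inpp5f and 0.0171 for Rb1. With exon plus intron reads they were 0.12 for Mest, 0.0692 for Impact, 0.19 for Ube3a, -0.0252 for Tspan32 and 0.0148 for Nap1l4. Commd1 was at 0.0521 with unique reads and at -0.164 to 4.88e-05 with a library left out, above 0 only without 4-week replicate 3. Nap1l4 was at 0.00295 with the minimum of 5 CPM, 0.00465 with DESeq2 size factors, 0.00452 with DESeq2, and -0.0359 to 0.0316 with a library left out. Slc38a4, Phlda2, Kcnq1ot1 and Snrpn rest on 37 to 238 reads in all, and what part depth has in their results was not tested.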
